A study of Hordeum vulgare with 32 samples.

Results

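Row type in barley (Hordeum vulgare) is set in part by VRS1, a homeodomain-leucine zipper (HD-Zip) transcription factor that holds back the lateral spikelets of the 2-rowed spike. This account describes 1567 transcripts that the deposited table places on chromosome 2 at PopSeq positions 55 to 90, around the HD-Zip transcript AB259783.1 (MLOC_4993.2) at 79.39. PopSeq positions come from a genetic map made by sequencing a population; the table names no unit for them, and they are called map units here. Members were taken by position alone, from 30174 transcripts in all. The HD-Zip transcript itself and the kinesin transcript MLOC_77511.1 at 80.03 were left out. Another 1496 transcripts of chromosome 2 have a position outside the interval.

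Transcript abundance was measured by RNA sequencing of total RNA from the main shoot apex, the growing tip that becomes the spike, at 2 steps of the Waddington scale, W3.5 and W5.5. That scale describes how far the inflorescence and its floral organs have developed. In the deposited table the column names call the later step W5.0. Bowman, a 2-rowed cultivar, had 4 libraries per stage. The other lines are introgression lines in Bowman, each with 3 libraries per stage: vrs1 (stock GSHO 1907), vrs4.k (stock 1986), int-a.1 (stock 2055) and int-c.5 (stock 2003). The deposited column names give int-a.1 as vrs3(int-a.1). All plants were untreated and grown in long days of 16 h light. An introgression line keeps a donor segment around the selected locus in the background of the recurrent parent. Each line was 1 stock, and the lesions, the donors and the extent of the donor segments are not given in the sources used here, so a difference from Bowman cannot be assigned to an allele or to a segment. Nothing says that the libraries came from separate plants or pools, so p-values measure the spread between libraries, which may be technical.

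Values are TPM, a measure of transcript abundance scaled for length and for the library total, from which sequencing depth cannot be read. Each library summed to between 980945 and 987728 TPM, and the members held 5.66% to 5.93% of it. Markers of the shoot apex were present in every library, with a summed level of 1110 to 2070 TPM over 56 transcripts. Photosynthesis transcripts of leaves summed to 1320 to 3410 TPM (64 transcripts), root markers to 186 to 262 TPM (9) and matches to grain storage proteins to 1000 to 3370 TPM (44); their part in the results was not tested. On the first principal component 4 libraries fell on the far side of the median of the opposite stage. These were replicate 4 of Bowman, replicate 1 of int-a.1 and replicate 2 of vrs4.k, all from W3.5, and replicate 1 of the W5.5 libraries of int-c.5. In whole apices, fewer cells of a type and less RNA per cell cannot be told apart.

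The members are spread unevenly along the map. They occupy 117 distinct positions, and 1115 of them (71.2%) lie from 57 to 60, called the crowded block here. Position 58.78 alone holds 152 members and 58.92 holds 126. Many genes share a map position where recombination is rare, as it is in the middle of barley chromosomes. Around the HD-Zip transcript the map is sparse: 17 members lie within 1 unit of it and 100 within 3 units. High-confidence gene models make up 796 members and low-confidence models 771, a high-confidence share of 50.8% against 44.8% of all transcripts. An Arabidopsis match is given for 921 members and a rice match for 1032. The median member had 10.8 TPM over all libraries, against 9.81 for all transcripts, with a range from 0.758 to 2150. At the edges, the last transcripts outside lie at 54.39 (4 transcripts) and 90.16 (7), and the first inside at 55.38 (4) and 89.8 (9); median log2 folds at these positions lay between -0.19 and 0.06 in the 4 lines.

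Each line was compared with Bowman to ask where along the interval transcript levels differ. In the mean of both stages, most members did not pass the test in any line, with 1520 of 1567 not called. At an adjusted p below 0.05, 47 were called in at least 1 line in that mean. Low-confidence models made up 38 of these 47, and 771 of all 1567 members. Their share among the called transcripts of all chromosomes is not given, so this count is not read as particular to the interval. In vrs1, 14 members were called, 3 higher and 11 lower, which is 0.893% of members beside 0.497% of all transcripts (0.0994% higher and 0.398% lower). In vrs4.k, 24 were called, 3 higher and 21 lower, or 1.53% beside 1.54% (0.341% higher and 1.2% lower). In int-a.1, 29 were called, 3 higher and 26 lower, or 1.85% beside 2.13% (0.335% higher and 1.8% lower). In int-c.5, 2 were called, both lower, or 0.128% beside 0.345% (0.219% lower). The shares in vrs4.k and int-a.1 thus stood near those of all transcripts. Elsewhere on chromosome 2 the test called 2 of 1496 transcripts in vrs1 (0.134%), 19 in vrs4.k and 19 in int-a.1 (1.27% each) and 1 in int-c.5. The 4 comparisons share the 8 Bowman libraries. The counts move with single libraries: vrs4.k had 38 called members without replicate 4 of Bowman at W3.5, and int-a.1 had 18 without its own replicate 2 at W3.5. With library weights the counts were 23 in vrs1, 98 in vrs4.k, 131 in int-a.1 and 25 in int-c.5, and with only the compared groups int-a.1 had 13 and int-c.5 had 1. The shares of all transcripts in these alternative fits are not given, so their counts show nothing particular to the interval.

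The median log2 fold of all members was -0.007 in vrs1, -0.009 in vrs4.k, 0.007 in int-a.1 and -0.024 in int-c.5, and that of all transcripts tested was -0.014, -0.016, -0.004 and -0.034. The median size of the fold, taken without its sign, was 0.089 for members in vrs1 and 0.094 for all transcripts. No member was listed at 0 in every library of a line while above 0 in all 8 Bowman libraries, nor the reverse.

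**Figure D1:**
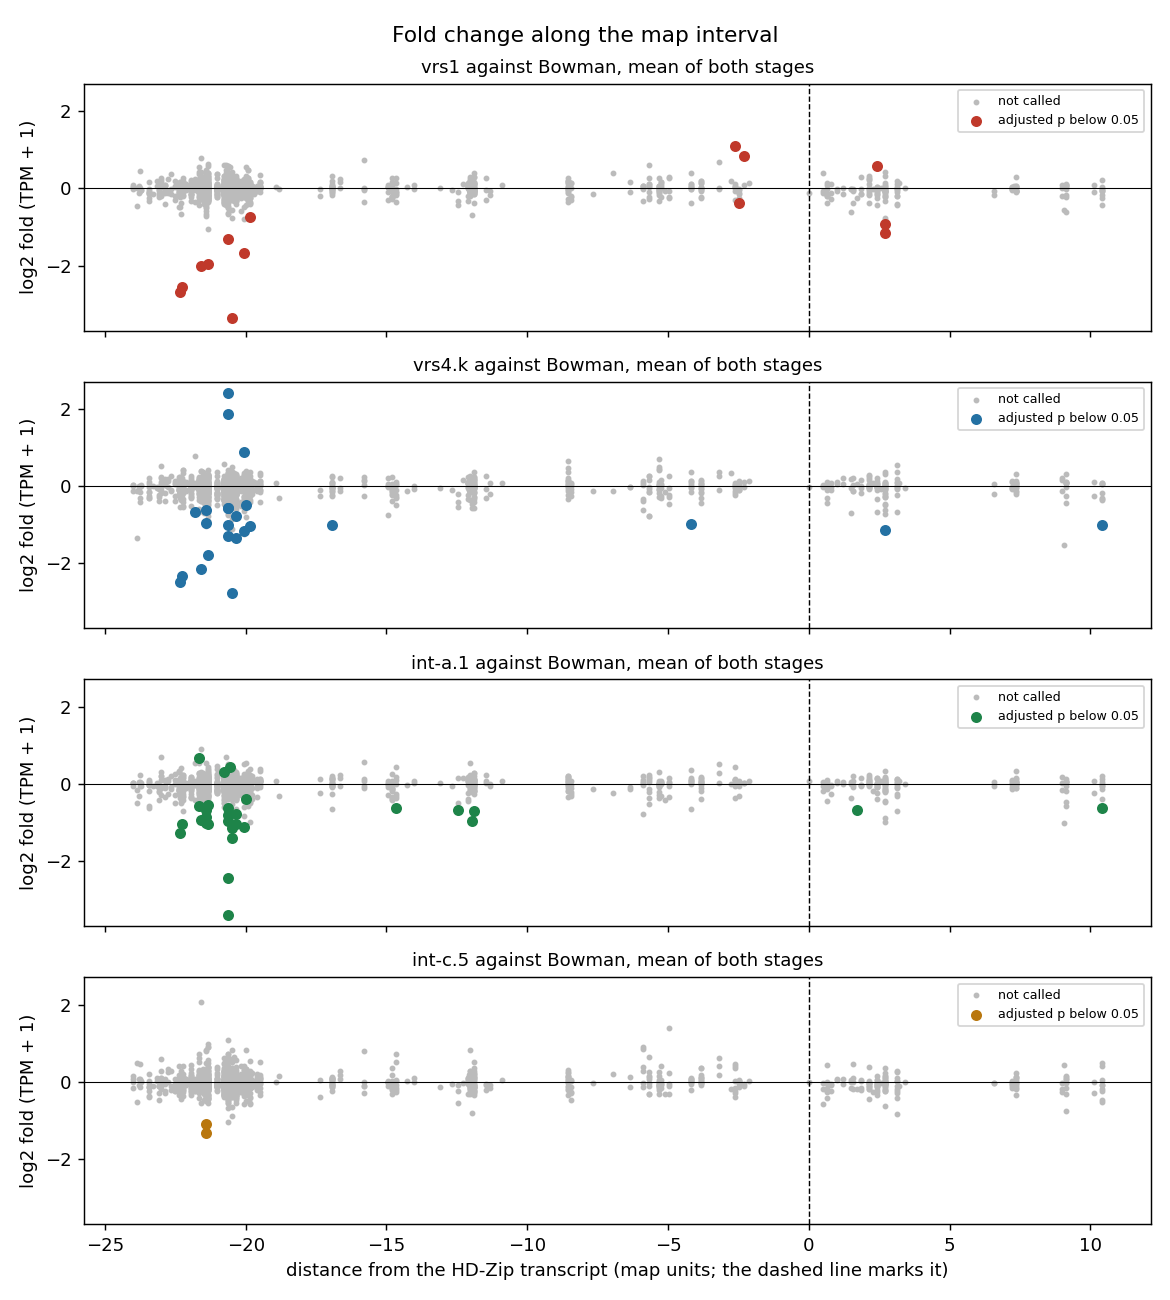
Log2 fold change of each member against Bowman, mean of both stages on the log2(TPM + 1) scale, plotted by distance in map units from the HD-Zip transcript; each panel is 1 line, grey points were not called and coloured points had an adjusted p below 0.05. In vrs1 the 14 called members fall into the crowded block and into a stretch within 3 units of the HD-Zip transcript. The crowded block holds 71.2% of all members.

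Along the map, the vrs1 calls lay from 55 to 60 and from 75 to 85. From 55 to 60, where most members lie, 8 of 1171 members were called (0.683%), all lower. That share stood near the 0.497% of all transcripts (0.398% lower). Of the 239 members between 60 and AK370622, the first call beyond, none was called. At the share of all transcripts few calls would fall among so few members, so this gap is not read as a pattern. From 75 to 80, 3 of 46 members were called (6.52%), and from 80 to 85, 3 of 91 (3.3%), and from 85 to 90 none of 45. All 6 of these calls lie within 3 units of the HD-Zip transcript, which is 6% of the 100 members there. This window was not set before the fit. Its outermost vrs1 calls lie 2.62 units before and 2.69 units past the HD-Zip transcript, so the window just encloses them. The shares in it are a description and no test of a cluster. At an unadjusted p below 0.05, 20 of the 100 members within 3 units differed in vrs1, 8 higher and 12 lower, beside 6.83% of all transcripts. The count in the same window was 9 in vrs4.k (12.3% of all transcripts), 12 in int-a.1 (13%) and 6 in int-c.5 (11%). Within 3 units 1 member was called in vrs4.k, 1 in int-a.1 and none in int-c.5. The difference between lines in these counts was not tested.

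**Figure D2:**
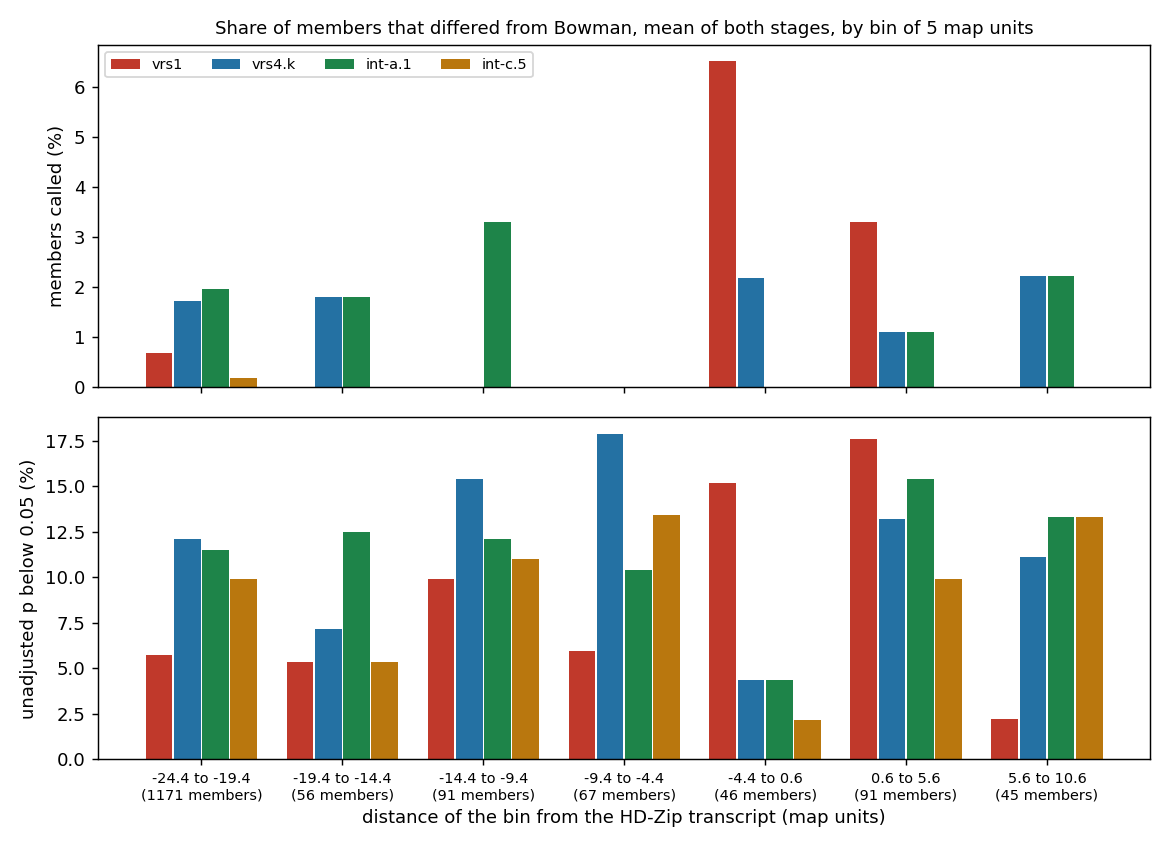
Share of members that differed from Bowman in bins of 5 map units, given by distance from the HD-Zip transcript, with the number of members under each bin; the upper panel counts an adjusted p below 0.05 and the lower panel an unadjusted p below 0.05, in percent, with 1 bar colour per line. In vrs1 the shares were highest in the bins from 75 to 80 (6.52% called, 15.2% unadjusted) and from 80 to 85 (3.3% and 17.6%).

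The transcripts nearest to the HD-Zip transcript did not pass the test. Within 1 unit, 0 of 17 members were called by limma in any line, and 2 in vrs1, 1 in vrs4.k, 2 in int-a.1 and 2 in int-c.5 had an unadjusted p below 0.05. AK356917, which matches a protein with an SH3 domain, a module that binds proline-rich peptides, has the same position as the HD-Zip transcript. It ranged from 14.2 to 17 TPM in vrs1 and from 15.4 to 19.2 in Bowman, a log2 fold of -0.12 with a 95% interval from -0.25 to 0.01. MLOC_57609.1 at 79.89 matches AUTOPHAGY-RELATED PROTEIN 13, a subunit of the kinase complex that starts autophagy. Its fold in vrs1 was -0.07 (interval -0.22 to 0.08). MLOC_64395.3, also at 79.89, matches a vacuolar processing enzyme, a protease that matures vacuolar proteins, and its fold was -0.13 (interval -0.32 to 0.07). For these 3 high-confidence models the intervals reach no further than -0.32 and 0.08. The 3 low-confidence models among the 6 nearest had wider intervals. Of these, MLOC_38075.1 and MLOC_44692.1 share position 80.03 with 6 other members, and the tie was broken by the higher mean TPM. The fold of MLOC_23860.1 was 0.39 (interval -0.39 to 1.17), that of MLOC_38075.1 -0.19 (-0.53 to 0.16) and that of MLOC_44692.1 -0.37 (-0.65 to -0.09, adjusted p = 0.5).

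Of the 6 members called beside the HD-Zip transcript in vrs1, AK367537 at 77.09 had the smallest adjusted p. Its rice match is an EF-hand protein, and its Brachypodium relative matches a calmodulin-related protein; EF hands are the loops by which calmodulin and its relatives bind calcium. AK367537 stood at 10.9, 13.1 and 10.9 TPM in the W3.5 libraries of vrs1, and at 7.2, 7.3, 8.3 and 6.3 in those of Bowman. At W5.5 it stood at 11.8, 10.6 and 13 TPM in vrs1 and at 5.8, 4, 5 and 6.2 in Bowman. Every vrs1 library was above every Bowman library. The log2 fold was 0.61 at W3.5 (SE 0.115, adjusted p = 0.0071), 1.04 at W5.5 (SE 0.115, adjusted p = 3.5e-06) and 0.83 in the mean (SE 0.0811, adjusted p = 2.0e-07). AK367537 was called in no other line: it ranged from 5.1 to 6.7 TPM in vrs4.k, from 5.8 to 7.2 in int-a.1 and from 4.82 to 6.35 in int-c.5. The direct comparisons use the same vrs1 libraries and are no separate support. In them vrs1 was above vrs4.k by 0.84 (adjusted p = 4.7e-07), above int-a.1 by 0.81 and above int-c.5 by 0.93, each past the test.

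AK370622, 2.62 units before the HD-Zip transcript, matches cytochrome b561, a membrane protein that passes electrons from ascorbate. It was higher in vrs1, at 5.6, 6.3 and 8.7 TPM at W3.5 and 4.7, 8.4 and 7 at W5.5. Bowman had 2.8, 2, 7.5 and 1.4 TPM at W3.5 and 2.2, 1.7, 3.7 and 1.7 at W5.5. The groups overlapped at W3.5 through 1 Bowman library, replicate 3, and did not overlap at W5.5. The fold of 1.11 (SE 0.253, adjusted p = 0.042) lost its call in 14 of 22 alternatives, with adjusted p up to 0.16. MLOC_27647.1 at 81.8, a low-confidence model with no match, was at 12.4, 17.6 and 12.6 TPM at W3.5 and 12.4, 11.6 and 11.3 at W5.5 in vrs1. Bowman ranged from 6.3 to 10.9 and from 6.2 to 10 TPM, and neither stage overlapped (0.58, SE 0.114, adjusted p = 0.0078). That call was lost with only the compared groups (adjusted p = 0.15).

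Another 3 members around the HD-Zip transcript were lower in vrs1. MLOC_51316.3 at 82.08, a high-confidence model without a match, stood at 3.5, 6.8 and 3.6 TPM at W3.5 and at 3.3, 4.6 and 4 at W5.5 in vrs1. Bowman had 10.5, 8, 23.5 and 7.1 TPM at W3.5 and 6.6, 13.4, 13.9 and 8 at W5.5. No vrs1 library reached a Bowman library of the same stage, and the fold was -1.15 (SE 0.225, adjusted p = 0.0083). MLOC_51316.3 was lower in vrs4.k too, from 2.9 to 6.3 TPM (-1.14, adjusted p = 0.0049), and vrs1 and vrs4.k differed by -0.01 with an interval from -0.50 to 0.49. In int-a.1 it was not called and overlapped Bowman at both stages, at 4.5 to 11.5 TPM and 67.7% of Bowman's mean. In int-c.5 it ranged from 8 to 17.2 TPM, above vrs1 (fold of vrs1 against int-c.5 -1.39, adjusted p = 0.0016). Both calls against Bowman were lost when only the compared groups were fitted (largest adjusted p = 0.13 and 0.058).

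MLOC_22984.1, at the same position 82.08, matches a heavy-metal-associated domain protein, a family that carries metal ions. It was at 1.6, 2 and 1.8 TPM at W3.5 and 1.3, 1.4 and 2.3 at W5.5 in vrs1, and at 3.1, 2.2, 3.9 and 2.1 and at 6.1, 7.2, 6.4 and 4.7 in Bowman. The test of line by stage did not pass for it (-0.99, interval -1.74 to -0.24, adjusted p = 1.0). The fold was -1.42 at W5.5 (SE 0.258, adjusted p = 0.004) and -0.92 in the mean (adjusted p = 0.0088). MLOC_5274.3 at 76.91 matches HINT4, a histidine triad nucleotide-binding protein, and was lower by a small amount. It ranged from 6.9 to 9.4 TPM in vrs1 and from 8.3 to 13.3 in Bowman without overlap within a stage (-0.37, SE 0.0785, adjusted p = 0.021). Its call was lost in 11 of 22 alternatives, with adjusted p up to 0.23, including quantile normalization and median centring.

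**Figure D3:**
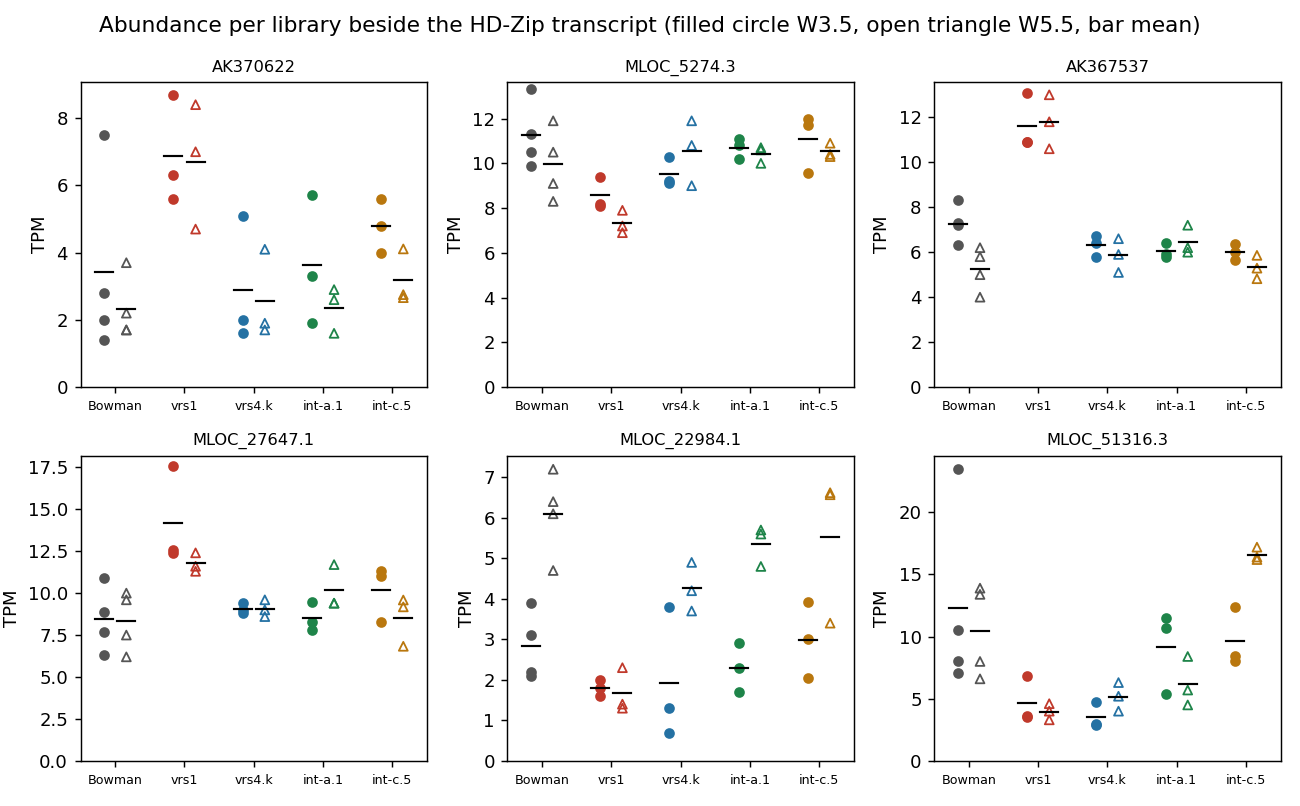
TPM in each library of the 6 members called in vrs1 within 3 map units of the HD-Zip transcript, by line; filled circles are W3.5, open triangles W5.5 and bars the group means, with 4 libraries per Bowman group and 3 per group of the other lines. AK367537 is high in vrs1 only among the 5 lines, and MLOC_51316.3 is low in both vrs1 and vrs4.k.

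Just beyond the threshold were MLOC_64560.2 at 81.52, which matches the ALG12 mannosyltransferase of protein glycosylation (0.27, adjusted p = 0.057), and AK364615 at 82.08 (0.42, adjusted p = 0.059); both were named after their values were seen. MLOC_64560.2 ranged from 11 to 12.8 TPM in vrs1 and from 9.1 to 9.8 in vrs4.k, and that difference passed (0.34, SE 0.0681, adjusted p = 0.011).

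The crowded block held the largest folds of vrs1. All 8 members called there were low-confidence models, all were lower in vrs1, and all 8 were called lower in vrs4.k too. In int-a.1, 7 of the 8 were called lower, and in int-c.5 none was. These 8 are 0.717% of the block, beside 0.497% of all transcripts. Of all 150 vrs1 calls, 120 were lower. How many of those were also lower in vrs4.k or int-a.1 is not given, so the sharing is not shown to be particular to the block. These lines were set against the same Bowman libraries, so each line's own values are given. The 7 members called lower in vrs1, vrs4.k and int-a.1 were grouped after their values were seen and are described without a test of the group. Their mean TPM stood at 8.79% to 26.1% of Bowman's in vrs1, at 14.1% to 27.5% in vrs4.k, at 29% to 49.9% in int-a.1 and at 76.7% to 125% in int-c.5.

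MLOC_25487.2 at 57.05 matches SERINE CARBOXYPEPTIDASE-LIKE 48, of a family of secreted hydrolases and acyltransferases. It stood at 3.9, 2.5 and 1.7 TPM at W3.5 and 2.9, 2.8 and 3.2 at W5.5 in vrs1. Bowman had 21.7, 22.3, 24.5 and 24.5 TPM at W3.5 and 24, 21, 26.2 and 21 at W5.5. The int-a.1 libraries lay between, at 7.4, 9.1 and 10.1 TPM and at 4.6, 13.4 and 12.8, and int-c.5 ranged from 17.7 to 25.2. The fold in the mean was -2.67 in vrs1 (SE 0.167, adjusted p = 9.9e-11), -2.47 in vrs4.k (SE 0.167, adjusted p = 1.5e-10) and -1.26 in int-a.1 (SE 0.167, adjusted p = 2.6e-05). At W3.5 vrs1 and vrs4.k lay lowest, from 1.7 to 5.4 TPM, then int-a.1, then Bowman, with no overlap between these steps. The fold of vrs1 against int-a.1 was -1.42.

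MLOC_42987.1 at 57.12 matches HISTIDINE KINASE 5, a cytoplasmic histidine kinase of Arabidopsis. It ranged from 2 to 7.5 TPM in vrs1, from 3.2 to 7.2 in vrs4.k, from 6.6 to 19.8 in int-a.1, from 23 to 32.5 in int-c.5 and from 24.1 to 36.3 in Bowman. Its fold was -2.56 in vrs1 (adjusted p = 1.9e-09), -2.32 in vrs4.k (adjusted p = 5.4e-09) and -1.04 in int-a.1 (adjusted p = 0.0021). It is 1 of 14 transcripts of the table with that Arabidopsis match, and the only one in the interval. The other 13 were all called lower in vrs1 and in vrs4.k, 10 of them in int-a.1 and none in int-c.5, and 2 of the 13 have a map position. Near-identical copies can share reads, so the level of MLOC_42987.1 cannot be told apart from theirs and its position need not be that of the RNA counted. MLOC_25487.2 shares its match with 5 other transcripts, none of which was called.

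The largest fold of vrs1 in the interval belonged to MLOC_54513.1 at 58.92, which has no match. It stood at 10, 3.9 and 6 TPM at W3.5 and 2.9, 2.7 and 3.9 at W5.5 in vrs1, against 44.9 to 56.1 and 47.1 to 67.9 in Bowman (-3.36, SE 0.266, adjusted p = 5.8e-09). The vrs4.k libraries spanned 3.4 to 13.8 TPM and those of int-a.1 8.6 to 36.4. The lowest int-a.1 values, 11.9 at W3.5 and 8.6 at W5.5, were each in replicate 1 of its group. MLOC_55300.1 at 57.79, whose Brachypodium relative has a rice match described as a retrotransposon protein, ranged from 3 to 8 TPM in vrs1, from 2.3 to 7 in vrs4.k and from 13 to 31.5 in Bowman (-2.02 and -2.15). In int-a.1 it stood at 9 to 13.1 TPM, and that call (-0.93, adjusted p = 0.02) was lost without any 1 of 4 libraries: replicate 3 of Bowman or replicate 2 or 3 of int-a.1 at W3.5, or replicate 1 of int-a.1 at W5.5 (largest adjusted p = 0.073).

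MLOC_29738.1 at 58.04, MLOC_29280.1 at 58.78 and MLOC_29644.1 at 59.35 have no match and were also called lower in all 3 lines. MLOC_29738.1 ranged from 2.4 to 6.2 TPM in vrs1 and from 3.5 to 7.3 in vrs4.k, with int-a.1 at 5.7 to 11.5 and Bowman at 15.2 to 25. MLOC_29280.1 stood at 0.7 to 1.5 TPM in vrs1 and 3.2 to 6.8 in Bowman. MLOC_29644.1 was listed at 0 in 3 of 6 vrs1 libraries and was at most 1.2 TPM there, against 2.1 to 6.4 in Bowman. Their folds in vrs1 were -1.95, -1.30 and -1.67. With a pseudocount of 0.1, MLOC_29644.1 lost its calls in vrs4.k and int-a.1 (adjusted p = 0.05 and 0.058). The eighth member, MLOC_22619.1 at 59.56, differed less: 3.9 to 5.8 TPM in vrs1, 2 to 4.8 in vrs4.k and 6.3 to 15.6 in Bowman (-0.73, adjusted p = 0.019, and -1.04, adjusted p = 0.00011). In vrs1 that call was lost in 5 of 22 alternatives, with adjusted p up to 0.13: without replicate 4 of Bowman or replicate 3 of vrs1 at W5.5, without replicate 2 or 3 of vrs1 at W3.5, and with only the compared groups.

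These 7 transcripts were chosen for their calls in the same libraries, so the folds between lines are a description and no test is read from them. The fold of vrs1 against vrs4.k lay between -0.59 and 0.13, with intervals from -1.18 to 0.61. Against int-a.1 the folds were -1.96 to -0.51 in vrs1 and -1.37 to -0.05 in vrs4.k. Against int-c.5 they were -3.19 to -0.98 in vrs1, -2.60 to -0.95 in vrs4.k and -1.42 to -0.47 in int-a.1. For each library, the median over the 7 transcripts of the percent of Bowman's mean was 12.8% to 25.3% in vrs1, 14.2% to 24.8% in vrs4.k, 22.3% to 58.7% in int-a.1, 79.7% to 105% in int-c.5 and 89.9% to 116% in Bowman. The lowest int-a.1 library was W5.5 replicate 1.

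**Figure D4:**
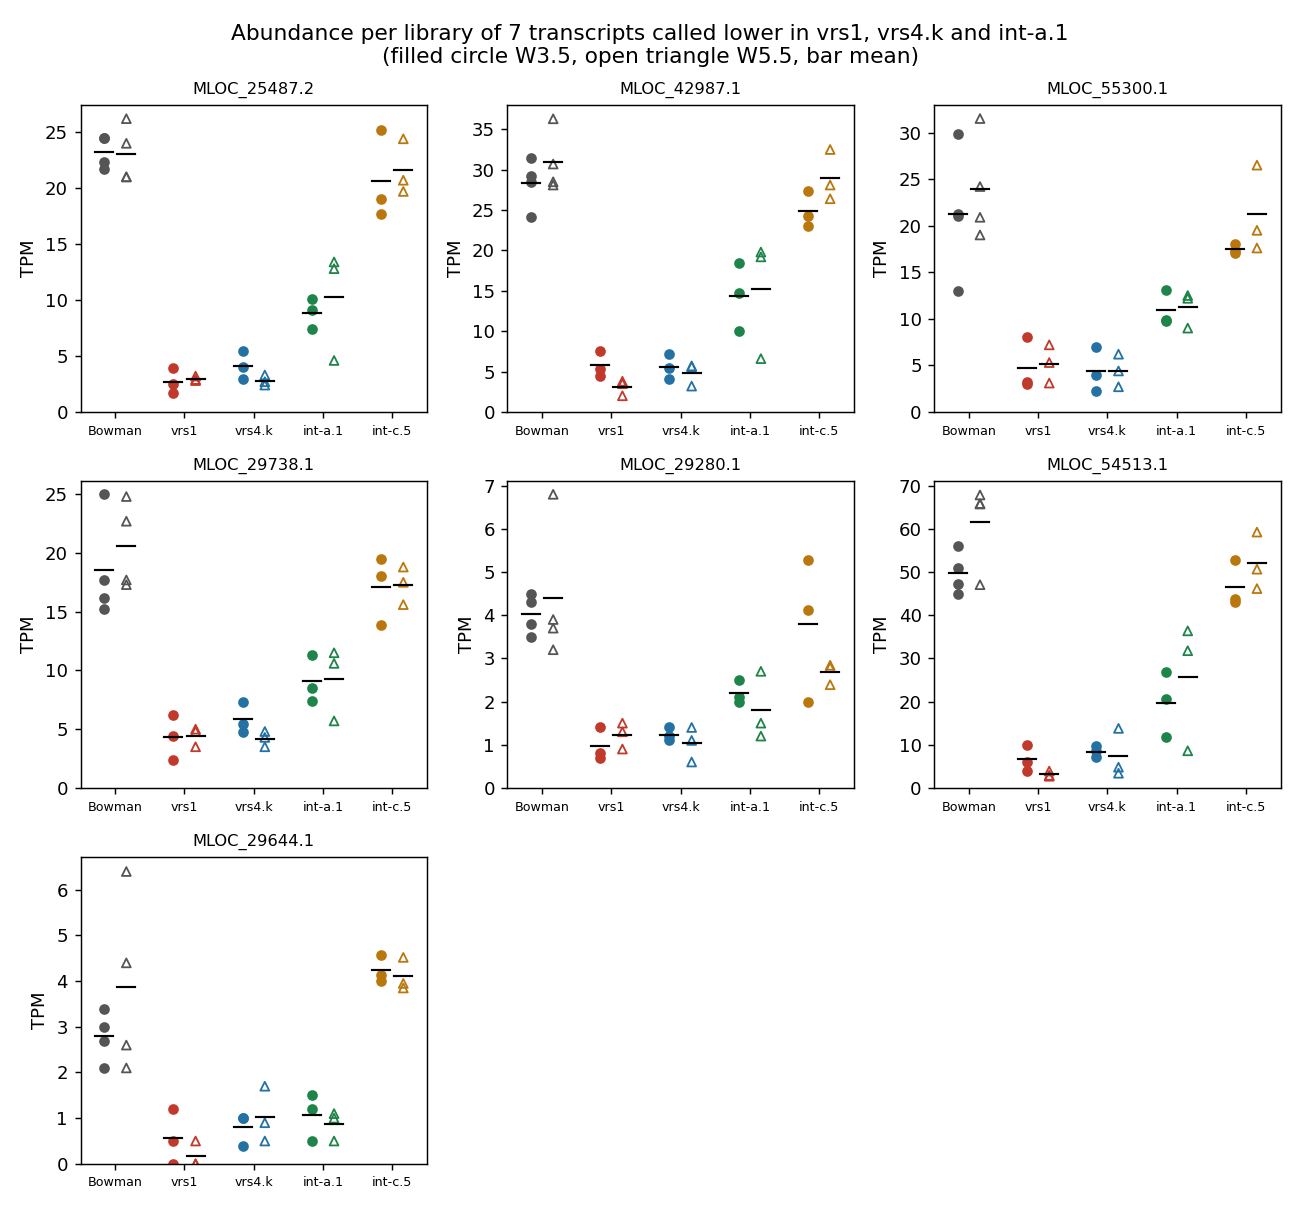
TPM in each library of the 7 crowded-block members called lower in vrs1, vrs4.k and int-a.1; filled circles are W3.5, open triangles W5.5 and bars the group means, with 4 libraries per Bowman group and 3 per other group. In the 7 panels the means over both stages are lowest in vrs1 and vrs4.k, that of int-a.1 is 29% to 49.9% of Bowman's, and int-c.5 overlaps Bowman at both stages for 5 of them, but not at W5.5 for MLOC_29280.1 or at W3.5 for MLOC_29644.1.

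In vrs4.k, 20 of the 24 called members lie in the crowded block (1.79% of the 1115 there, beside 1.54% of all transcripts), and the 3 called higher are among them. MLOC_29544.1 at 58.78, whose Brachypodium relative matches a non-intrinsic ABC protein, of the family of membrane pumps driven by ATP, stood at 49.4, 65.8 and 45.5 TPM at W3.5 and 49.9, 63.9 and 48.7 at W5.5 in vrs4.k. Bowman had 17.6, 6, 7.5 and 6.3 TPM at W3.5 and 6.9, 13.4, 12.9 and 7.9 at W5.5. The mean in vrs4.k was 5.49 times Bowman's, with a fold of 2.42 (SE 0.244, adjusted p = 2.0e-07). It was called in no other line, where vrs1 ranged from 4.7 to 12.5 TPM, int-a.1 from 5.3 to 20.3 and int-c.5 from 2 to 13.8. The fold of vrs1 against vrs4.k was -2.43, and vrs4.k was above int-a.1 by 2.19 and above int-c.5 by 3.08, each past the test.

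MLOC_29545.1, at the same position 58.78 and without a match, was likewise high in vrs4.k. It stood at 4.6, 3.2 and 3.3 TPM at W3.5 and 2.7, 3.1 and 3.6 at W5.5 in vrs4.k. The W3.5 libraries of Bowman held 0.4, 0.3, 0.6 and 0.5 TPM, its 4 W5.5 libraries listed it at 0, and it was at most 0.3 in the other 3 lines. At W3.5 the fold was 1.69 (SE 0.122, adjusted p = 2.3e-09). Its level is low, and on the log2(TPM + 1) scale the change of such a transcript is understated. AK368254 at 59.35, which matches RAP2.6L, an ethylene-response-type transcription factor of the AP2 class, was the third. It was at 2.7, 3.3 and 1.7 TPM at W3.5 and 3.2, 7.1 and 2.7 at W5.5 in vrs4.k, and from 0.6 to 1.7 and from 1.2 to 2 in Bowman (0.89, SE 0.197, adjusted p = 0.016). The groups touched at 1.7 TPM at W3.5, and the call was lost without vrs4.k replicate 2 of either stage (adjusted p up to 0.061).

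The kinase-like MLOC_33035.1 at 59.07 was lower in vrs4.k. Its rice match is a protein kinase of the PKN/PRK1 type, and the barley model is of low confidence. It stood at 30.1, 48.3 and 22.1 TPM at W3.5 and 40.2, 31.5 and 48.5 at W5.5 in vrs4.k, against 62.1 to 94.1 and 88.6 to 130 in Bowman, with no overlap. The fold was -1.34 at each stage and in the mean (SE 0.169, adjusted p = 8.2e-06), and vrs1, from 68 to 105 TPM, was above vrs4.k by 1.21 (adjusted p = 0.00025). Outside the block, the vrs4.k calls were MLOC_51316.3 and 3 lower low-confidence models that the naming rule left out: MLOC_2477.1 at 62.46 (-1.01), MLOC_125.1 at 75.21 (-0.99, a call lost in 9 of 22 alternatives, with adjusted p up to 0.089) and MLOC_69435.3 at 89.8, which matches serine racemase (-1.01, adjusted p = 0.0019).

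The direct comparison of vrs1 with vrs4.k called 5 members, 3 higher and 2 lower in vrs1, or 0.319% beside 0.411% of all transcripts (0.242% higher and 0.169% lower). They were AK367537, MLOC_64560.2 and MLOC_33035.1, higher in vrs1, and MLOC_29544.1 and MLOC_29545.1, lower in vrs1. Over all members, vrs1 against int-a.1 called 11 (0.702% beside 0.782% of all transcripts) and vrs1 against int-c.5 called 15 (0.957% beside 0.517%). For vrs4.k the counts were 14 against int-a.1 (0.893% beside 1.04%) and 18 against int-c.5 (1.15% beside 1.07%), and int-a.1 against int-c.5 called 7 (0.447% beside 0.785%).

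A pair of transcripts at 58.78 was called lower in int-a.1 and in no other line. MLOC_37675.1, a high-confidence model that matches peroxidases, enzymes that oxidise substrates with hydrogen peroxide, held 0, 0.4 and 1.6 TPM in the W3.5 libraries and was listed at 0 by the 3 of W5.5. Bowman had 4.6 to 6 TPM at W3.5 and 5.1 to 7.2 at W5.5 (W3.5 fold -2.03, SE 0.194, adjusted p = 5.0e-07). MLOC_37674.1, without a match, was at 0, 1.6 and 4.5 TPM at W3.5 and 0, 0 and 1 at W5.5 in int-a.1, against 12.2 to 18.1 and 16.1 to 26 in Bowman (mean fold -3.39, SE 0.242, adjusted p = 3.8e-10). Both transcripts stayed between 4.8 and 7.4 TPM and between 10.8 and 20.9 TPM, respectively, in vrs1, vrs4.k and int-c.5. At each stage replicate 1 of int-a.1 was listed at 0 for both. The direct comparison of vrs1 with int-a.1 gave 3.31 for MLOC_37674.1 (adjusted p = 2.5e-09) and 2.47 for MLOC_37675.1 (adjusted p = 1.7e-11).

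MLOC_45327.1 at 58, also without a match, was lower in int-c.5 and in int-a.1. The int-c.5 libraries held 4, 5.42 and 5.22 TPM at W3.5 and 4.18, 6.25 and 8.58 at W5.5, against 12.9 to 17 and 12.2 to 18.3 in Bowman (-1.32, SE 0.177, adjusted p = 0.00013). In int-a.1 the 6 libraries did not form 1 level: 13.2, 5.3 and 7.4 TPM at W3.5 and 10.8, 4.4 and 4.7 at W5.5 (-1.0, adjusted p = 0.0015). Replicate 1 was the highest at each stage, and the replicate numbers are names that pair no libraries. MLOC_59412.1, at the same position, was the other int-c.5 call; it was chosen after its values were seen, it ranged from 0.0956 to 2.91 TPM in int-c.5 and from 1.2 to 4.1 in Bowman, and its call (-1.08, adjusted p = 0.019) was lost in 7 of 22 alternatives. Of the remaining int-a.1 calls, 3 were higher: MLOC_20386.1 at a log2 fold of 0.68, MLOC_73212.1 at 0.44, both named after their values were seen, and AK250505.1. The call of MLOC_20386.1 was lost in 11 of 22 alternatives (adjusted p up to 0.16) and that of MLOC_73212.1 in 13 of 22 (adjusted p up to 0.17). AK250505.1 spanned 36.6 to 43.9 TPM in int-a.1 against 25.7 to 36.4 in Bowman (0.31, SE 0.0761, adjusted p = 0.024), and that call was lost in 6 of 22 alternatives. In int-c.5 AK250505.1 was not called but spanned 34 to 42.1 TPM, 122% of Bowman's mean beside 125% in int-a.1. Its false discovery rate there in the authors' deposited table was 0.0027. MLOC_20386.1, called in int-a.1 only, had means of 215% of Bowman's there, 207% in int-c.5, 185% in vrs1 and 138% in vrs4.k.

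**Figure D5:**
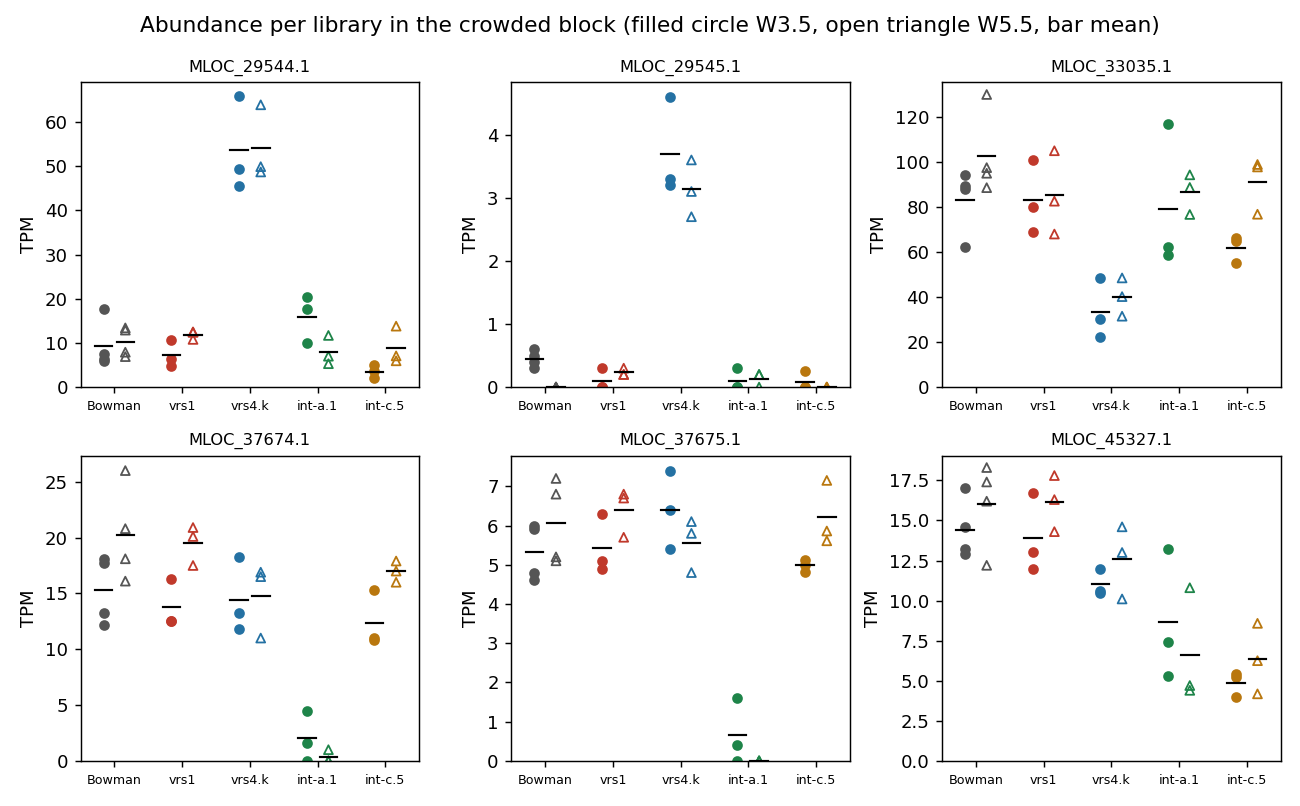
TPM in each library of 6 crowded-block members that stood apart in 1 or 2 lines; filled circles are W3.5, open triangles W5.5 and bars the group means, with 4 libraries per Bowman group and 3 per other group. MLOC_29544.1 and MLOC_29545.1 are high and MLOC_33035.1 low in vrs4.k, MLOC_37674.1 and MLOC_37675.1 are low in int-a.1, and MLOC_45327.1 is low in int-c.5 and in part of the int-a.1 libraries.

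At W3.5, 9 members were called in vrs1 (1 higher, 8 lower; 0.574% beside 0.341% of all transcripts, or 0.0464% higher and 0.295% lower). At W5.5, 9 were called (1 higher, 8 lower; 0.574% beside 0.325%, or 0.0563% higher and 0.268% lower), of which 8 were called at both stages, each with the same sign. In vrs4.k, 14 members were called at W3.5 and 13 at W5.5, beside 0.653% and 0.696% of all transcripts, and 9 at both with the same sign; without replicate 4 of Bowman the W3.5 count was 27. In int-a.1, 7 and 9 were called, all lower, beside 0.653% and 0.709% (0.583% and 0.597% lower), and 3 at both; the W3.5 count was 12 without that Bowman library, and the W5.5 count 4 without replicate 1 of int-a.1. In int-c.5, 1 was called at each stage, MLOC_45327.1, beside 0.0994% and 0.106% (0.0563% and 0.053% lower). No member passed the test of line by stage in limma in any of the 4 lines, though 7 did in int-a.1 with library weights; at an unadjusted p below 0.05 there were 49 in vrs1 (3.13% of members beside 2.5% of all), 91 in vrs4.k (5.81% beside 6.22%), 84 in int-a.1 (5.36% beside 5.85%) and 60 in int-c.5 (3.83% beside 2.91%).

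Gene groups of the interval were counted by key words that the matches of each transcript carry. Of 75 transcription factors, none was called in vrs1 and 1 in vrs4.k, AK368254, beside 4 and 18 of the 1458 in the whole table. Of 68 kinases and receptors, 1 was called in vrs1 (MLOC_42987.1) and 2 in vrs4.k (with MLOC_33035.1), all lower, beside 18 and 21 of 1281. Of 65 transposons and retroelements, 1 was called lower in each (MLOC_55300.1), beside 22 and 31 of 1379. Of 44 transporters, none was called in vrs1 and 1 higher in vrs4.k (MLOC_29544.1), beside 0 and 5 of 538. Of 14 hormone-related members, none was called in vrs1 and 1 in vrs4.k, AK368254 again, beside 0 and 7 of 279. The 52 chromatin, 27 ribosome and translation, 21 cell cycle, 53 protease and ubiquitin, 26 RNA processing, 17 cell wall and sugar, 4 NB-ARC and 4 pentatricopeptide members held no call in vrs1 or vrs4.k; of all 701 chromatin transcripts, 19 and 22 were called. Median log2 folds of these lists in vrs1 lay between -0.075 and 0.144, beside -0.014 for all transcripts.

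Factors of meristems and flowering made up 15 members by key word, 2 of which are chaperonins caught by the letters TCP-1. One was called in vrs4.k, AK368254, beside 5 of the 221 in the whole table, and none in the other lines. MLOC_44160.1 at 58 matches CENTRORADIALIS, a relative of TERMINAL FLOWER that keeps meristems from flowering. It ranged from 3.2 to 86.8 TPM over the 8 Bowman libraries, from 2.8 to 47.4 in vrs1 and from 3 to 38.9 in vrs4.k (-0.07 and -0.48, adjusted p = 0.99 and 0.75). MLOC_61901.1 at 58.64, which matches the MADS-box factor APETALA1, a floral identity factor of Arabidopsis, ranged from 30.8 to 120 TPM in Bowman and from 51.8 to 116 in vrs1. The SPL4 match MLOC_13032.1, of the SBP-box family, ranged from 38.7 to 144 TPM in Bowman and from 45.5 to 132 in vrs1. MLOC_11678.1 at 59.42 matches the meristem homeobox factor KNAT1 and was steadier, at 10.9 to 17.5 TPM in Bowman and 10 to 14.9 in vrs1 (-0.20, adjusted p = 0.84). Of these, the YABBY match MLOC_18466.1 at 77.27, of a family that sets organ polarity, lies nearest to the HD-Zip transcript, and ranged from 28.6 to 45.8 TPM in Bowman and from 37.9 to 59.2 in vrs1 (0.15, adjusted p = 0.88).

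In the authors' deposited table, 12 members had a false discovery rate below 0.05 in vrs1 over both stages, and 10 of them were among the 14 called here. Of these 12, 5 were higher and 7 lower, or 0.766% of members beside 0.454% of all transcripts. The authors' deposited table counts 26 in vrs4.k (20 of the 24 called here), 23 in int-a.1 (23 of 29) and 4 in int-c.5 (1 of 2). In vrs4.k 9 were higher and 17 lower (1.66% beside 1.3% of all transcripts). In int-a.1 1 was higher and 22 lower (1.47% beside 1.65%), and in int-c.5 2 were higher and 2 lower (0.255% beside 0.278%). The authors' deposited table gives AK367537 a log2 fold of 0.89 in vrs1 (false discovery rate 2e-07), and gives MLOC_51316.3 and MLOC_22984.1 rates of 0.06 and 0.065 there, above the threshold.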

How the data were processed

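RNA of 32 libraries from 5 lines at 2 stages was compared in 10 groups by line and stage, from 1 deposited table of 30174 transcripts. Its expression columns are called raw counts in the file headers, but the deposited values hold decimals and sum to nearly the same total in every library, so they were taken as TPM from the values; 1 deposited int-c.5 column holds TPM rounded to whole numbers and was recorded as a score. The authors' deposited log2 folds and p-values were used only for comparison. BWA, Salmon, GATK and limma are listed in the submitters' processing notes, with no version or role. Which build was used is not stated there. Each column names its group and no single sample, and 0 columns were left unassigned. Depth is unknown, so no counting interval is given.

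All libraries were fitted together with limma 3.58.1 (R 4.3.3, lmFit and eBayes) on log2(TPM + 1), with no filter and no covariate, and p-values were adjusted by Benjamini-Hochberg over all 30174 transcripts. A transcript is called at an adjusted p below 0.05. Folds are on the log2(TPM + 1) scale and understate changes of low transcripts. SE is that of the log2 fold, and intervals are 95%. The fit was first tested on simulated data. Comparisons of the mean of both stages weigh stages equally. Direct comparisons between lines other than vrs1 with vrs4.k, and the stage tests of int-a.1 and int-c.5, were added later. For a member named for its call, a direct comparison reuses libraries of that call and is no separate support.

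The members, gene lists, tests and naming rule were chosen with earlier results of these data known. The rule names up to 8 highest and 8 lowest called members without overlap in vrs1 and vrs4.k, up to 3 and 3 in int-a.1 and int-c.5, the 6 nearest to the HD-Zip transcript, up to 2 called members of each key-word list, and called meristem factors. Other names were chosen after their values were seen: AK370622, MLOC_5274.3, MLOC_2477.1, MLOC_125.1, MLOC_69435.3, the uncalled meristem factors, MLOC_22984.1, MLOC_22619.1 and those said to be so. Gene names come from the table's own matches; 0 identifiers matched the reference gene table, and no sequence is shown.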

Additional observations from a re-analysis of the deposited data

Results flagged for a closer look

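Dixon's gap test looked for 1 library apart from the other 3 in Bowman groups of 4, over the named and called members. It passed its critical value in 8 of 106 groups, and chance alone gives about 1 in 20. The W5.5 group of MLOC_29545.1, listed at 0 in all 4 libraries, has no spread and could not be tested. For MLOC_29544.1, called higher in vrs4.k, Bowman W3.5 replicate 1 had 17.6 TPM and the others 6 to 7.5. MLOC_54513.1, lower in vrs1, vrs4.k and int-a.1, had 47.1 TPM in Bowman W5.5 replicate 2 and 65.8 to 67.9 in the others. MLOC_3378.1 stood at 6.6 TPM in Bowman W3.5 replicate 3 against 3.1 to 3.3, and MLOC_762.1 at 6.5 in Bowman W3.5 replicate 1 against 9.5 to 9.8. MLOC_21326.1 had 8.6 TPM in Bowman W3.5 replicate 1 against 7 to 7.2, and MLOC_20785.1 had 26.2 in Bowman W5.5 replicate 4 against 13.3 to 15.1. MLOC_2477.1 was at 6.7 TPM in Bowman W5.5 replicate 3 against 9.9 to 10.5. MLOC_23860.1, 0.5 map units from the HD-Zip transcript, was at 7.5 TPM in Bowman W5.5 replicate 4 against 2.4 to 2.8.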

How the results depend on the processing

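All 7 transcripts lower in vrs1, vrs4.k and int-a.1 kept their vrs1 calls in each of 22 alternative fits, as did AK367537 and MLOC_22984.1, although the rate of MLOC_22984.1 in the authors' deposited table was 0.065: 9 of 14 vrs1 calls, 15 of 24 in vrs4.k, 9 of 29 in int-a.1 and 1 of 2 in int-c.5 were lost in none of these fits. No named fold changed sign. Fitting only the compared groups gave 4 members in vrs1 at W3.5, 7 and 8 in vrs4.k at W3.5 and W5.5, 0 and 2 in int-a.1, 13 in its mean, 0 and 0 in int-c.5 and 1 in its mean; fewer samples then estimate the spread. Library weights gave 95 in vrs4.k and 111 in int-a.1 at W3.5, 27 in int-a.1 at W5.5, 2 and 8 in int-c.5 at W3.5 and W5.5, 23 in the vrs1 mean, 98 in vrs4.k, 131 in int-a.1, 25 in int-c.5 and 34 in vrs1 against vrs4.k; the cause was not tested. Without the 4 libraries apart from their stage, int-c.5 had 3 at W3.5 and 0 at W5.5, and with a pseudocount of 0.1 it had 0 at W5.5. At an adjusted p below 0.01, int-a.1 had 4 at W5.5 and 16 in the mean, and int-c.5 had 0, 0 and 1. High-confidence models alone gave 1 and 2 in vrs1 at W3.5 and W5.5 and 5 in its mean, 1, 0 and 2 in vrs4.k, 1, 1 and 3 in int-a.1, 0, 0 and 1 in int-c.5, and 2 in vrs1 against vrs4.k. The authors' deposited rates gave 4 in the int-c.5 mean (0.255% of members beside 0.278% of all transcripts). For the other settings of this section the shares of all transcripts are not given, so a higher or lower count is not read as particular to the interval.

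Leaving out single libraries gave 6 to 10 and 8 to 9 members in vrs1 at W3.5 and W5.5 and 11 to 17 in the mean; 10 to 27, 9 to 14 and 18 to 38 in vrs4.k; 6 to 12, 4 to 10 and 18 to 33 in int-a.1; 0 to 2, 0 to 1 and 1 to 4 in int-c.5; and 5 to 8 in vrs1 against vrs4.k. The highest counts in the means of vrs4.k (38) and int-a.1 (33) came without Bowman W3.5 replicate 4, and the lowest in int-a.1 (18) without int-a.1 W3.5 replicate 2. The stage tests of vrs1 and vrs4.k gave 0 throughout. In bins of 2.5 map units, the vrs1 calls beside the HD-Zip transcript were 3 of 42 members from 75 to 77.5 and 3 of 78 from 80 to 82.5. No unfiltered alternative was run, since the fit itself has no filter. No paired analysis was possible because the columns carry no sample and their numbers are names only. TPM hides depth, so low transcripts cannot be given a detection limit.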
